A study of Mus musculus with 6 samples.

Results

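Old-only strong regions are stretches of open chromatin that ranked among the strongest peaks in every macrophage library from old mice and in none from young mice. To find them, the 50000 peaks with the highest −log10 q were taken from each of the 6 deposited peak lists, and peaks that overlapped by 1 bp or more were merged across lists on chromosomes 1 to 19 and X. This gave 66216 strong regions. Of these, 2177 (3.29%) had a top peak in all 3 old libraries and in no young library, and these are the old-only regions described here. The mirror set, the young-only regions, held 1716 regions (2.59%), and 33698 strong regions (50.9%) had a top peak in all 6 libraries. The surplus of old-only over young-only regions depended on how strength was cut: with all peaks at a −log10 q of 5 or more there were 702 old-only and 2002 young-only regions, and at 10 or more there were 311 old-only and 817 young-only. Without young replicate 2 there were 2615 old-only and 2740 young-only regions, and the young-only count also rose by over 1.5 times without old replicate 1 (2817) or young replicate 3 (2577). The old-only regions were chosen by the rank of their peaks, by −log10 q, in old against young libraries, so the old against young values of these regions below are a description and carry no test.

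The libraries came from wild-type BALB/c mice, with 3 from old animals of more than 78 weeks and 3 from young animals of 3 weeks. Leg and arm bones were crushed, non-adherent cells were removed, and the adherent marrow cells were expanded in culture with serum. They were identified as macrophages by the surface proteins F4/80 and CD169. Omni-ATAC, a form of ATAC-seq in which a transposase inserts sequencing adapters into accessible DNA, was run on 50000 cells per library, and the libraries were sequenced as paired reads of 125 bp over 4 lanes. The labels do not say whether the replicates were separate mice, so differences between libraries of one age may be technical. Peaks were placed on mm10, a build made from another mouse strain.

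Open chromatin marks promoters, where transcription begins, and enhancers, distal stretches where transcription factors bind and act on genes nearby or far away. In macrophages, PU.1 opens many enhancers that define the lineage, C/EBP and AP-1 factors bind beside it, and AP-1 sites are known for opening with stimulation, adhesion and stress. Because a bulk library averages over cells, a stronger peak can come from more cells in which a site is open or from more frequent opening in each cell, and these cannot be told apart. The nearest gene is a label of position and need not be the gene that a region acts on.

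Old-only regions, like young-only ones, seldom covered a promoter. Of the 2118 on chromosomes other than 18, 65 (3.07%) overlapped a RefSeq promoter window, which runs from 250 bases before a start site to 50 after it. The share was 3.56% for young-only regions and 15.3% for all strong regions. The windows printed here show what promoters under old-only regions look like. The first group holds the promoters under the best-ranked old-only regions, with gene models and one member of a cluster of near-identical genes passed over. Galntl5 encodes a glycosyltransferase-like protein of sperm, Btbd11 an ankyrin repeat and BTB protein, Cdsn the corneodesmosin that joins cells of the outer skin, Ankrd13b a ubiquitin-binding ankyrin repeat protein, Dpep1 a membrane dipeptidase and Ms4a14 a tetraspanning membrane protein. Axl, a receptor tyrosine kinase for the uptake of dying cells, and Pparg, a nuclear receptor of lipid metabolism, were added after their values were seen because they belong to macrophage functions. Sequences are from RefSeq (GRCm38.p6), 5′ to 3′ on the strand of the gene. Capitals mark matches, on either strand, to 5 motifs searched by their letters: TGANTCA for AP-1, GAGGAAG for the core of a PU.1 site, TTGCNNAA for C/EBP, GGGCGG for the GC box and TATAAA for the TATA box.
Galntl5, chr5:25181230-25181529, plus strand: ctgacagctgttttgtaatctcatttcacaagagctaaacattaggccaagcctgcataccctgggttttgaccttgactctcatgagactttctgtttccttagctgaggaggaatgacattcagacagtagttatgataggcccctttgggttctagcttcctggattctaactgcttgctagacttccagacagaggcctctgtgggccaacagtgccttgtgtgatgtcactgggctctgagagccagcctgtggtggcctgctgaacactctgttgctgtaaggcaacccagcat
Btbd11, chr10:85598161-85598460, plus strand: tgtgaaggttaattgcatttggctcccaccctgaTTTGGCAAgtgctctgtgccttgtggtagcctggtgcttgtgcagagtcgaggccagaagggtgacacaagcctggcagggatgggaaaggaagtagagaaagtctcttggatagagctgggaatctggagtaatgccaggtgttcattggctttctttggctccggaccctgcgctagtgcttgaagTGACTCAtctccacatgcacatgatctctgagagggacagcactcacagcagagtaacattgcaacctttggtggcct
Cdsn, chr17:35542851-35543150, plus strand: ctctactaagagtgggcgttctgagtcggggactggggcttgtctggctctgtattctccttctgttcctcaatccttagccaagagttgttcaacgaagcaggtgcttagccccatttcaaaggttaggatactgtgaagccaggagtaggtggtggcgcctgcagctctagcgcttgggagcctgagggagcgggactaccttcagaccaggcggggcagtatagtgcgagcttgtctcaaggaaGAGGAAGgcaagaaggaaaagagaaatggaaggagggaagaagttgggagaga
Ankrd13b, chr11:77489993-77490292, minus strand: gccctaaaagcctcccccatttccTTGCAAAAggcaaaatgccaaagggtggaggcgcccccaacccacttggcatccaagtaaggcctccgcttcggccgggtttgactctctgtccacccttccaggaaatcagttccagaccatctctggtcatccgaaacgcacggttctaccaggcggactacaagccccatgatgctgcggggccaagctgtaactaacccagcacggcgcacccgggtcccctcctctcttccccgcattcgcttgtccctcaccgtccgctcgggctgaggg
Hrct1, chr4:43726948-43727247, plus strand: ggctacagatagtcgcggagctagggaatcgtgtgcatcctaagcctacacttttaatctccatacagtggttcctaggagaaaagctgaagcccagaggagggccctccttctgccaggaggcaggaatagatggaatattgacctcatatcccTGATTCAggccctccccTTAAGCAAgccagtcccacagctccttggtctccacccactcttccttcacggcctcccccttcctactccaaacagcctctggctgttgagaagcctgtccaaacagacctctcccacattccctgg
Dpep1, chr8:123185985-123186284, plus strand: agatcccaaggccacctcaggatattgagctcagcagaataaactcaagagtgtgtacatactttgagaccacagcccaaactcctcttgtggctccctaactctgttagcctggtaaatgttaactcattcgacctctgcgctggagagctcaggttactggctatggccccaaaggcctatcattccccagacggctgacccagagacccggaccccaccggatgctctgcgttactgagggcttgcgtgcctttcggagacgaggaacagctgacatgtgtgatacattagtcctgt
Ms4a14, chr19:11314405-11314704, minus strand: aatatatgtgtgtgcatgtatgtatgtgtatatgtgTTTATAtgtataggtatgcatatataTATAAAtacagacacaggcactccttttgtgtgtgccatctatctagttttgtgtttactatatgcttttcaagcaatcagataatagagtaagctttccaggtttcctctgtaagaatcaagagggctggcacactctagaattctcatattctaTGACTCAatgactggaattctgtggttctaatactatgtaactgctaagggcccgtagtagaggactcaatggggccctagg
Axl, chr7:25788684-25788983, minus strand: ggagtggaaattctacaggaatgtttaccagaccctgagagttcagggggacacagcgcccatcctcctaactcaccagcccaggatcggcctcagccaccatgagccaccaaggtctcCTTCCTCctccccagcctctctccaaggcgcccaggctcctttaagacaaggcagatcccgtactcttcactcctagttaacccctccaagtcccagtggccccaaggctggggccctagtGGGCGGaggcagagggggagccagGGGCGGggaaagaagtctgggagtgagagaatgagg
Pparg, chr6:115421816-115422115, plus strand: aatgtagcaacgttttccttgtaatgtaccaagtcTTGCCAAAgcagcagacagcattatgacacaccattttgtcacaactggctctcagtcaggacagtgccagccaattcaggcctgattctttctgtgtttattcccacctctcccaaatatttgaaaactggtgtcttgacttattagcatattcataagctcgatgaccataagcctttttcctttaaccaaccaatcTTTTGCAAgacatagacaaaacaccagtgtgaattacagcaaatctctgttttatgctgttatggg

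The old-only regions covered Galntl5, Btbd11, Hrct1 and Dpep1 over all 300 bases of the window, and Axl over 222, Ms4a14 over 190, Pparg over 148, Ankrd13b over 100 and Cdsn over 89. An AP-1 match stands in the windows of Btbd11, Hrct1 and Ms4a14. C/EBP matches stand in those of Btbd11, Ankrd13b, Hrct1 and, at 2 places, Pparg, whose window has a GC content of 40.3% and 2 CpG sites. The Ankrd13b match and the second Pparg match lie in parts of the window that the old-only region did not cover. The same holds for the TATA box matches of Ms4a14. The Axl window has 2 GC boxes and a PU.1 core on the opposite strand, and a GC content of 60.3%. None of the 5 motifs is spelled in the Galntl5 and Dpep1 windows, which says only that these letters do not occur there.

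In all, 78 promoter windows overlapped an old-only region. Of these, 11 (14.1%) held the AP-1 motif, compared with 7.69% of the 65 windows under young-only regions, 5.02% of the 11077 under regions strong in all 6 libraries and 7.85% of all 32585 windows. The PU.1 core was spelled in 12.8% of windows under old-only regions and in 32.3% under young-only regions, beside 13.4% of all windows. C/EBP matches stood in 12.8% under old-only and 18.5% under young-only regions, beside 10.9% of all windows. A GC box was found in 39.7% under old-only regions, 35.4% under young-only regions and 66.5% under regions strong in all 6 libraries. Over all windows it was 35.9%, close to the old-only and young-only shares. The median number of CpG sites per window was 9 under old-only and 7 under young-only regions. It was 22 under regions strong in all 6 libraries and 7 over all windows. Old-only promoters thus had fewer GC boxes and CpG sites than promoters strong in every library, but not fewer than promoters in general. These shares are descriptions of small sets, without a test. They count a match anywhere in a window, also outside the part that a region covers.

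The deposited lists held 245667, 227978 and 215947 peaks for the old libraries and 243924, 223018 and 254410 for the young ones, and the means of 229864 ± 14900 in old and 240451 ± 16000 in young libraries (SD, n = 3 each) lay within the spread of the libraries (two-sided exact permutation p = 0.50, smallest possible 0.10). The 50000 strongest peaks covered 24.6 ± 3.04 Mb in old and 26.5 ± 1.90 Mb in young libraries (SD, n = 3 each, exact permutation p = 0.40), and the −log10 q of the last of them lay between 5.72 and 9.53 in old and between 6.71 and 9.96 in young libraries. Read depth is unknown, so the same rank stands for different −log10 q values in different libraries. All 14 macrophage markers checked, among them Adgre1 (F4/80), Siglec1 (CD169) and Csf1r, had a strong region of all 6 libraries in the gene or within 10 kb of it, as did 68.4% of all protein-coding genes.

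At marker genes, the summed length of top peaks differed between the ages for some cell types. The sums use the same top peaks as the rule and are a description. They were not scaled to the length of all top peaks. That length ran from 22.4 to 28.0 Mb in old and from 24.4 to 28.0 Mb in young libraries. How often sums over other genes separate the ages was not computed. Top peaks in and around the 14 macrophage markers summed to between 23.2 and 28.0 kb in old and between 28.8 and 33.7 kb in young libraries, and the groups did not overlap. Those at 8 mesenchymal stromal markers summed to between 10.8 and 13.4 kb in old and between 8.93 and 10.4 kb in young libraries, again without overlap. Of these 8, Col1a1, Col1a2, Pdgfra, Pdgfrb and Prrx1 had a strong region of all 6 libraries, and Cxcl12, Lepr and Twist1 did not. For 5 osteoblast markers the sums were 11.4 to 12.7 kb in old and 9.41 to 11.8 kb in young libraries, which overlap, and Bglap and Ibsp lacked a region strong in all 6 libraries. The 4 mast cell and basophil markers had 0.208 to 0.229 kb in old and 0 kb in young libraries, all of it at Mcpt8, a basophil protease. Mcpt8 has an old-only region, so top peaks there in old and not in young libraries follow from the rule. None of the 4 was strong in all 6 libraries. At the Mcpt8 region the young libraries had weaker peaks, ranked 58330, 80771 and 52534, beside old ranks of 38193, 25437 and 48248. The sums of the 8 other types (B lineage, T and NK, neutrophil, erythroid, osteoclast, endothelial, dendritic and adipocyte) overlapped between the ages. Among all these markers, Ebf1, Prrx1, Runx2, Flt3 and Mcpt8 had an old-only region and no macrophage marker did. A young-only region stood at 5 macrophage markers and 1 mesenchymal stromal marker. Old-only and young-only regions have top peaks at a single age by the rule, so the sums are not independent of it. The part of other cell types in the old-only regions was not tested.

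Nearly all old-only regions were also called in the young libraries, lower in the lists. A weaker deposited peak, ranked beyond 50000, lay in all 3 young libraries at 2169 of the 2177 regions (99.6%, exact binomial 95% interval 99.3 to 99.8%, which covers counting error only). The mirror set behaved alike, since 1710 of the 1716 young-only regions (99.7%) had a weaker peak in all 3 old libraries. Old-only is thus a statement about rank: the site was called at both ages and was placed higher in the lists of the old libraries.

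The median rank of the best peak in an old-only region, where rank 1 is the strongest peak of a library, was 36744, 36463 and 35505 in old replicates 1, 2 and 3, against 70892, 71270 and 65590 in the young replicates. Ranks and −log10 q are the values of the authors' peak caller for single peaks of single libraries. The old peaks filled a median 98.8%, 80.8% and 84.4% of the region, and the young peaks 78.1%, 69.0% and 83.2%. The old replicate 1 peaks were the widest, and the covered share in young replicate 3 lay above that in old replicate 2. No old library alone set the choice, as the weakest of the 3 old ranks fell in replicate 1 at 792 regions, in replicate 2 at 794 and in replicate 3 at 591. The young side was less even. The best of the young ranks fell in young replicate 1 at 521 regions, in replicate 2 at 636 and in replicate 3 at 1019.

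**Figure D1:**
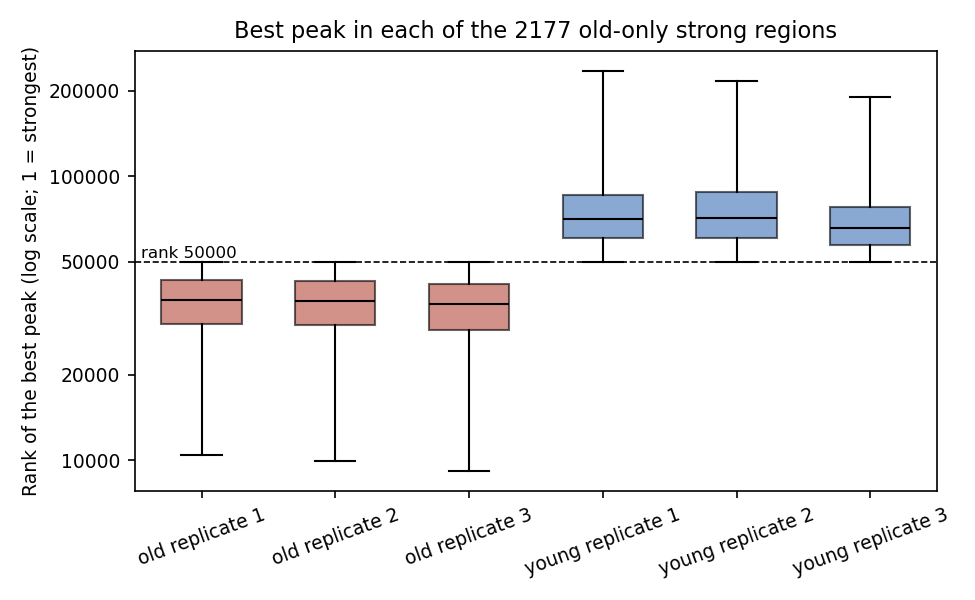
Rank of the best peak in each of the 2177 old-only regions, by library (vertical log axis, 1 = strongest). Boxes span the quartiles with the median as a line, whiskers run from the best to the worst rank, old libraries are on the left and young on the right, and the dashed line is the rank of 50000 that chose the regions. The old medians lie between 35505 and 36744 and the young medians between 65590 and 71270.

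Most regions lay close to the rank that defined them. The weakest old rank had a median of 42312 and the best young rank a median of 59479, and the ratio of the best young to the weakest old rank had a median of 1.52. In 776 regions (35.6%) the weakest old rank was beyond 45000, in 667 (30.6%) the best young rank was under 55000, and 1213 (55.7%) met one or both. At 428 regions (19.7%) the ratio was 2 or more, against 87 young-only regions (5.07%), and at 10 it was 4 or more, against 1 young-only region. The share with a ratio of 2 or more was larger in the old-only than in the young-only set of these lists, and that difference was not tested.

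**Figure D2:**
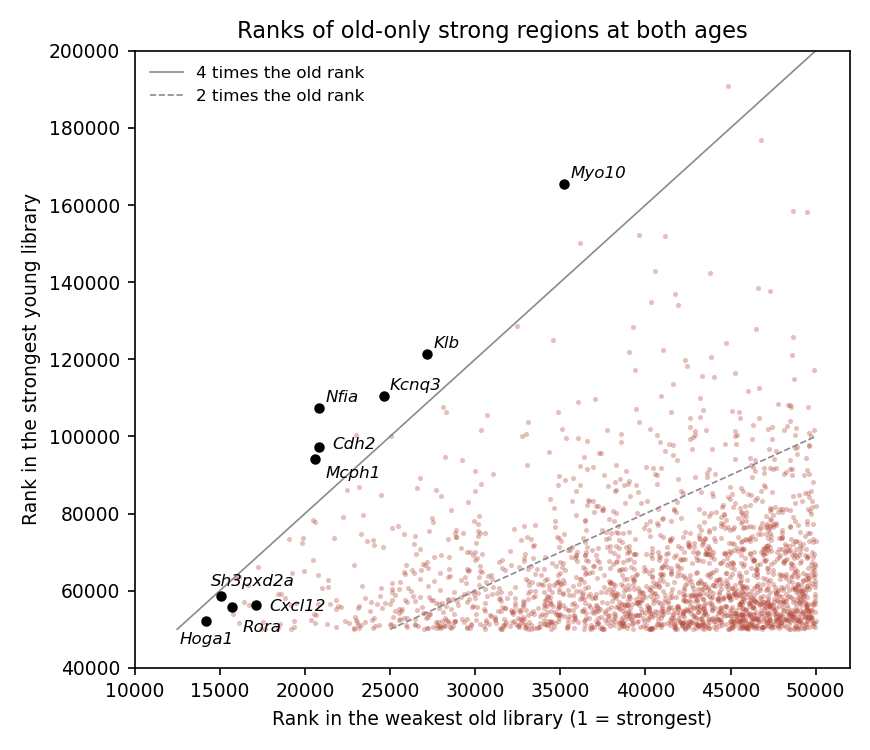
Each point is an old-only region, placed by its rank in the weakest old library (horizontal axis) and in the strongest young library (vertical axis), where 1 is the strongest peak. Points above the dashed and solid lines have a young rank at least 2 and 4 times the old rank, and the labelled points are 4 of the best-ranked regions and the 6 regions with the widest gap, Nfia at 5.15 being the highest.

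At the edge of the rule, a few ranks decided whether a region was kept. The old-only region in Gpc6, a cell-surface heparan sulfate proteoglycan, ranked 49996, 43318 and 41654 in old libraries, against 63803, 52267 and 53287 in young libraries. The one in Nmnat2, an enzyme of NAD synthesis, ranked 36400, 31474 and 21143 in old libraries, against 61749, 86841 and 50001 in young libraries. Just outside the rule, a region at Map2k4, a kinase of the JNK pathway, had old ranks of 36035, 45380 and 29164 and was left out because its rank of 49987 in young replicate 2 was inside the limit. A region at Pdha1, a subunit of pyruvate dehydrogenase, was left out for an old rank of 50034 beside 47971 and 42528, although its young ranks were 101257, 134703 and 82221. With the 25000 strongest peaks per library in place of 50000, 95 of the 2177 regions (4.36%) overlapped an old-only region, and with 75000 it was 385 (17.7%).

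The best-ranked old-only region lay at Hoga1, an aldolase of mitochondrial hydroxyproline breakdown, at chr19:42052880-42053690 (mm10). It also overlapped the gene model 4933411K16Rik. The region covered a gene end, and which of these genes the end belongs to was not separated. It ranked 12186, 14211 and 9318 in old libraries, against 52105, 53820 and 66867 in young libraries. The second, in the body of Sh3pxd2a at chr19:47311076-47311545, ranked 12474, 10149 and 15097 in old and 66471, 58530 and 73354 in young libraries. Sh3pxd2a encodes TKS5, a scaffold of podosomes, the adhesive and matrix-degrading contacts that macrophages and osteoclasts form. The next lay in Rora, a nuclear receptor of circadian and metabolic control, at chr9:68827263-68827967, with ranks of 10473, 15734 and 9192 in old and 72221, 55902 and 65339 in young libraries.

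Of the 12 best-ranked regions, 6 lay in a gene body, 1 at a gene end and 5 elsewhere. Those outside genes included one 18.6 kb from Rspo3, a secreted amplifier of Wnt signalling, which ranked 16704, 15576 and 17254 in old and 66149, 74085 and 69739 in young libraries. Another lay 324 kb from Cxcl12, the chemokine that holds blood stem cells in the marrow, at chr6:117505300-117506051. It ranked 15912, 16764 and 17153 in old and 92015, 68119 and 56389 in young libraries, and Cxcl12 was the nearest gene to 3 old-only regions and to no young-only region. Others were nearest to or within Elf3 (an epithelial ETS factor), Slc15a5 (of a family of peptide transporters), Errfi1 (an inhibitor of the EGF receptor), Gypc (glycophorin C of the red cell membrane), Tmem8b and Cog7 (a subunit of a Golgi tethering complex). In each of the 12 the old ranks were at or better than 17254 and the young ranks were beyond 50000, as the rule requires. A weakest old rank of 20000 or better was reached at 30 old-only and 5 young-only regions.

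**Figure D3:**
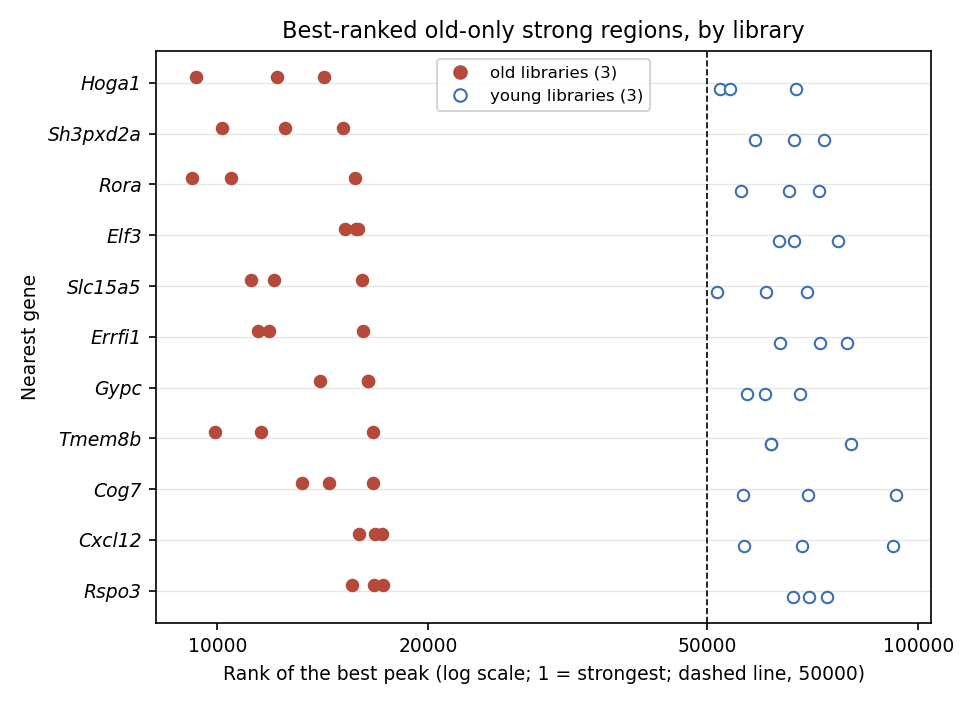
Of the 12 old-only regions whose weakest old rank is best, 11 are shown, named by the nearest gene from the best at the top. Each point is the rank of the best peak in 1 library (horizontal log axis, 1 = strongest), filled for the 3 old and open for the 3 young libraries, and the dashed line is rank 50000; the old ranks run from 9192 to 17254.

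The widest rank gaps, picked after their values were seen, lay at sites with a clear old peak and a weak young one. A region 24.0 kb from Nfia, a nuclear factor I transcription factor, ranked 14506, 20831 and 19222 in old libraries, against 121894, 107315 and 135149 in young libraries, and its ratio of 5.15 was the highest among the old-only regions. In Myo10, a myosin of filopodia, the ranks were 35233, 27184 and 29832 in old and 196961, 165470 and 185236 in young libraries. A region 228 kb from Cdh2, which encodes N-cadherin, ranked 20850, 20383 and 19272 in old and 131917, 97312 and 104024 in young libraries. The voltage-gated potassium channel gene Kcnq3 held a region ranked 19017, 24619 and 17353 in old and 110524, 141795 and 124676 in young libraries, and Klb, a coreceptor for endocrine FGFs, one ranked 27191, 23671 and 26700 in old and 165669, 137248 and 121435 in young libraries. In all of these the 3 young peaks were called yet stood far down the lists.

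A single old-only region had no deposited peak in any young library (0.0459%, exact binomial 95% interval 0.00116 to 0.256%, which covers counting error only). It was 193 bp wide, at chr7:16094644-16094836 in the body of Zfp541, a zinc finger protein of male germ cells. Its old ranks of 44741, 44496 and 48610 were all near the limit of 50000. A peak was called in 1 young library at 3 old-only regions, which lay in Tnfrsf1a (the main TNF receptor), in Mgrn1 (a ubiquitin ligase) and 68.5 kb from Pou3f3 (a neural POU factor). The Tnfrsf1a region was 128 bp wide and ranked 35619, 31278 and 45490 in old libraries, against 106305 in young replicate 2. At 4 more regions, among them those in Mrvi1, in Mamld1 and at an end of Elf5, 2 young libraries had a peak. These few genes were singled out after their values were seen, and a missing peak is one that was not called, so the site need not be closed.

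Old-only regions were mostly away from gene ends. Within 1 kb of an end of a protein-coding gene lay 147 of them (6.75%), compared with 6.12% of young-only regions, 29.7% of regions strong in all 6 libraries and 19.8% of all strong regions. Gene bodies held 1097 (50.4%) and the other 933 (42.9%) lay elsewhere. RefSeq gives gene spans here without exons, so exonic and intronic sites were not separated, and a gene end can be a start or a stop. The median width was 498 bp with a range from 66 to 1807 bp, against 386 bp for young-only regions and 716 bp for regions strong in all 6 libraries. The widest lay in Hdac7, a class IIa histone deacetylase (1807 bp), and at ends of Dennd5b (1722 bp) and Vgll4, a cofactor of TEAD factors (1607 bp).

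**Figure D4:**
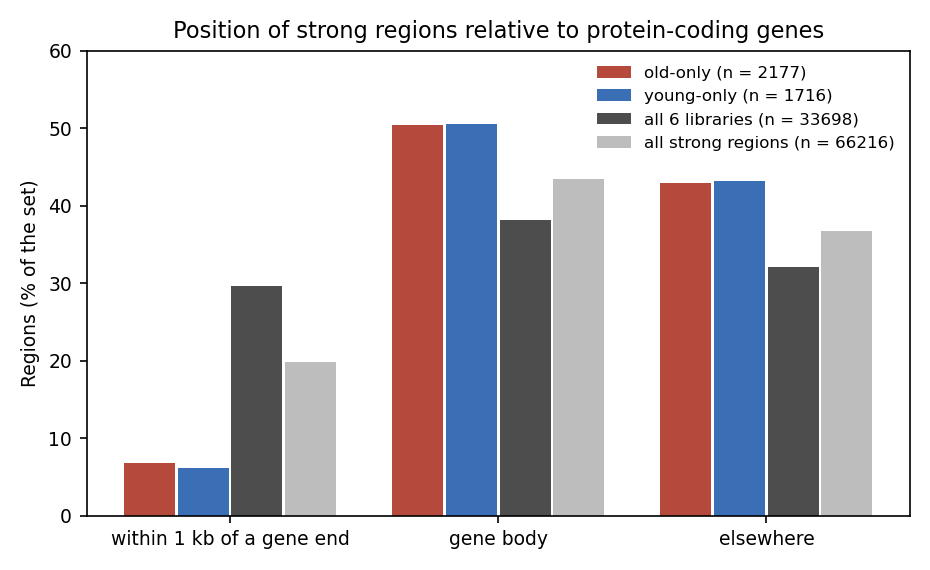
Share of strong regions (%, vertical axis from 0) within 1 kb of a gene end, in a gene body or elsewhere, for old-only, young-only, all-library and all strong regions. Old-only and young-only bars are nearly level (6.75% and 6.12% at gene ends), and both lie below the 29.7% of regions strong in all 6 libraries.

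Those outside genes lay farther out than in the mirror set. The 972 old-only regions outside protein-coding genes were a median 32.2 kb from the nearest one, against 21.9 kb for young-only regions and 20.7 kb for all strong regions. Of the 972, 262 (27.0%) were more than 100 kb away, against 18.1% of the young-only regions outside genes. Old-only regions inside genes sat in long ones, with a median gene length of 112 kb against 91.0 kb for young-only regions and 68.8 kb for all strong regions. A region strong in all 6 libraries stood within 10 kb of 919 old-only regions (42.2%), against 46.9% of young-only ones. By distance to genes, for those outside genes, and by nearness to regions strong in all 6 libraries, old-only regions were the more isolated age-specific set. This is a description of these lists, and gene length is not a measure of isolation.

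By chromosome, old-only regions made up between 2.71% of the strong regions of chromosome 15 and 4.67% of those of chromosome 12, where there were 123 of 2634. Chromosome 14 followed at 4.24% and chromosome 8 at 3.82%. On the X chromosome 31 of 1018 strong regions (3.05%) were old-only and 14 (1.38%) young-only. X-linked top peaks numbered 736 ± 4.73 in old and 716 ± 3.00 in young libraries (SD, n = 3 each), a description that uses the same top peaks as the rule. The sex of the mice is not given in the sources used here.

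At gene ends, the best-ranked old-only regions after Hoga1 lay at Nuak2, a stress-responsive kinase related to AMPK, at Rad54b, a motor protein of homologous recombination, and at Galntl5. The Nuak2 region, 205 bp from the gene, ranked 22880, 13192 and 13026 in old libraries, against 76842, 66738 and 89972 in young libraries. The Rad54b region also overlapped the gene Fsbp, and which of these genes the end belongs to was not separated. This region ranked 18898, 21782 and 25305 in old and 79749, 67119 and 54830 in young libraries. They were followed by Derl2, which acts in the disposal of misfolded proteins from the endoplasmic reticulum, and C1qtnf1, a secreted relative of C1q, whose old ranks ran from 21010 to 28381 and whose young ranks ran from 52524 to 102378.

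The 2177 regions were nearest to or inside 1765 protein-coding genes, of which 1432 had 1 region and 265 had 2. Rora and Plpp3 each had 6, Prkce, Arhgap26 and Wdfy2 had 5, and 15 genes had 4. Of the 27 strong regions nearest to or in Rora, 6 were old-only and none was young-only, and 4 of the 6 lay within the gene, which is 735 kb long. After the region given above, the Rora regions ranked between 28293 and 49711 in old and between 51365 and 121975 in young libraries. Genes with an old-only region were long. The 1445 genes with an old-only region within 10 kb had a median length of 60.6 kb, against 22.3 kb for genes with any strong region. That median is not given for genes with a young-only region. Young-only regions inside genes also sat in long genes, with a median gene length of 91.0 kb.

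Prkce, a protein kinase C isoform that acts in macrophage activation, held all 5 of its old-only regions within the gene, out of 30 strong regions, and no young-only region. The strongest, at chr17:86407627-86408622, ranked 20413, 25551 and 16375 in old and 56556, 61760 and 55274 in young libraries. Arhgap26, a GTPase-activating protein, held 5 old-only and 3 young-only regions among 59. One of the old-only regions ranked 39347, 41887 and 40705 in old and 167304, 135405 and 134158 in young libraries. The 6 at Plpp3, a phosphatase of lysophosphatidic acid, were 1 inside the gene and 5 outside, up to 473 kb away, among 32 strong regions with no young-only one.

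Mcph1, the microcephalin of chromosome condensation, held 4 old-only regions. The best-ranked of them, at chr8:18718209-18718693, also lies within Angpt2, the gene of a vascular angiopoietin that sits inside Mcph1. There the ranks were 19323, 19834 and 20609 in old and 103030, 101291 and 94039 in young libraries. Ntrk3, a neurotrophin receptor, had 4 old-only regions, all outside the gene, among 8 strong ones. The best of them ranked 20605, 15847 and 17125 in old and 78474, 101177 and 77692 in young libraries. Cdh11, a cadherin of mesenchymal cells, had 4 of 13, 3 of them from 395 to 555 kb away and 1 at the gene. Wdfy2, a protein of endosomes, had 5 of 19 strong regions and Lrmda, a gene of melanocyte differentiation, 4 of 32. Med13l, a subunit of Mediator, had 4 of 45.

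Among genes of known functions, old-only regions were set beside the share over all genes: 1445 of 21627 protein-coding genes (6.68%) had an old-only region in the gene or within 10 kb, and 1238 (5.72%) had a young-only one. Both kinds stood at 191 genes, which is 13.2% of the old-only genes and 15.4% of the young-only genes. Of the 38 gene lists, 5 had no old-only gene, namely those of MHC class II, senescence and cell cycle arrest, neutrophils, erythroid cells and Hox genes. Of all protein-coding genes, 16487 had any strong region within 10 kb, and the shares were not adjusted for that or for gene length. The lists are small, and no list was tested. With other ways to choose strong peaks their counts moved, for example from 0 to 4 old-only and from 0 to 11 young-only genes of macrophage identity, and from 0 to 8 and 0 to 4 of the extracellular matrix.

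**Figure D5:**
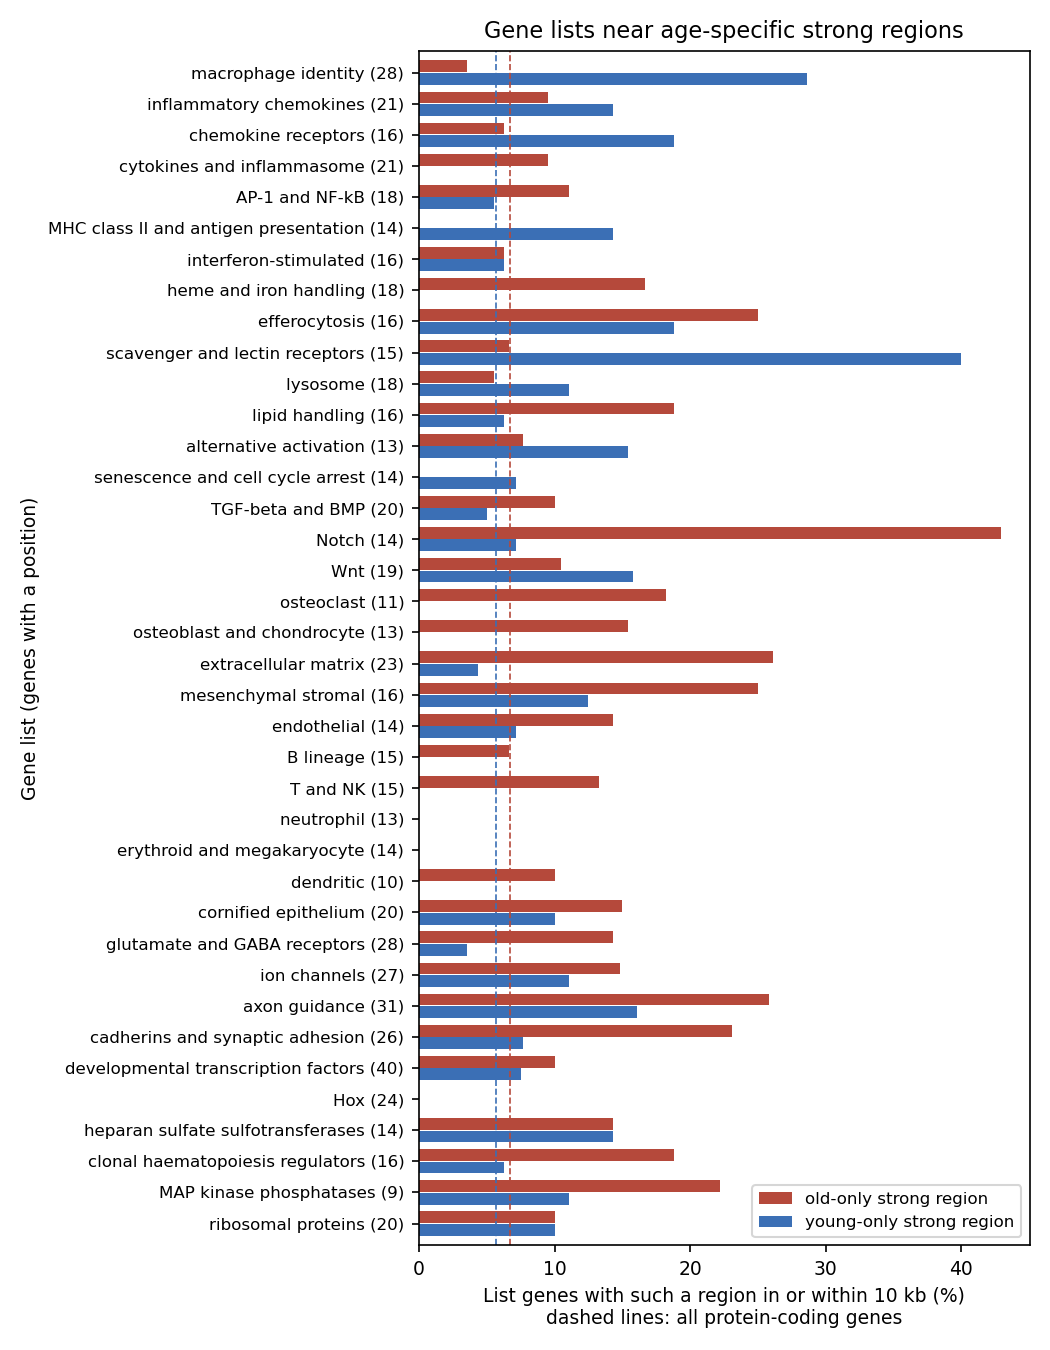
Share of the genes of each list (%, horizontal axis) with an old-only (upper bar) or young-only (lower bar) strong region in the gene or within 10 kb, with the number of genes measured in brackets. Dashed lines mark all protein-coding genes, 6.68% for old-only and 5.72% for young-only. The Notch list has the longest old-only bar (42.9%) and the scavenger and lectin receptors the longest young-only bar (40%).

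Of 28 macrophage identity genes measured, 1 (3.57%) had an old-only region, a share on 1 gene that is not far from the 6.68% over all genes, and 8 (28.6%) had a young-only region. The old-only one lay at Cebpa, the C/EBP factor of myeloid commitment, and ranked 36358, 40250 and 32700 in old libraries, against 96481, 74115 and 95418 in young libraries. The young-only ones were at Siglec1, Mertk, Cd14, Lyz2, Cx3cr1, Tfec, Mrc1 and Clec4n. Scavenger and lectin receptors, which bind modified lipoproteins and microbial sugars, had 1 of 15 with an old-only region (Colec12) and 6 with a young-only one. The 14 genes of MHC class II and antigen presentation had 0 with an old-only region and 2 with a young-only one, at Cd74 (the invariant chain) and Marchf1. Alternative activation genes had Klf4 in the old-only set and Mrc1 and Il4ra in the young-only set.

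Genes for the uptake and digestion of dying cells had both. In the efferocytosis list 4 of 16 genes (25%) had an old-only region, at the bridging ligand Gas6, the receptors Axl and Lrp1, and the integrin subunit Itgb3, and 3 (18.8%) had a young-only one, at Mertk, Cd36 and Elmo1. In Itgb3 the region ranked 22453, 23520 and 21577 in old and 61574, 51770 and 60314 in young libraries. The site near Gas6 overlapped its neighbour Tmem255b, which is the nearest gene, 0.574 kb from Gas6, and ranked 32947, 29077 and 24797 in old and 87148, 116186 and 69472 in young libraries. Axl had 2, and the one over its promoter printed above ranked 39607, 27750 and 31999 in old and 70007, 65025 and 53683 in young libraries. Gas6 is known as a ligand of Axl and of Mertk, which had a young-only region.

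Lipid handling genes with an old-only region were Pparg, the cholesterol exporter Abca1 and Srebf1, a transcription factor of lipid synthesis (3 of 16, 18.8%), against Abcg1 alone with a young-only one. The region 8.71 kb from Srebf1 lay in the body of Rai1. The Pparg site is the promoter window printed above, and it ranked 48012, 46111 and 26388 in old and 95433, 80460 and 88982 in young libraries. Heme and iron handling genes had 3 of 18 (16.7%) with an old-only region and 0 with a young-only one. They were Fech, which makes heme from iron and protoporphyrin, the ferrireductase Steap3 and the phagosomal iron transporter Slc11a1. The region 4.99 kb from Fech had the widest separation of the 3, with ranks of 14392, 15383 and 23160 in old and 91793, 97579 and 86796 in young libraries.

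In the inflammatory lists, the shares with an old-only region lay between 6.25% and 11.1%, against 6.68% over all genes, and rested on 1 or 2 genes each. Ccl2 and Ccl7, neighbouring genes of monocyte-attracting chemokines, shared an old-only region at chr11:82038579-82039017, and both also had a young-only region within 10 kb. That old-only site ranked 42375, 48842 and 30449 in old and 75538, 70749 and 90685 in young libraries. Of 21 cytokine and inflammasome genes, 2 (9.52%) had an old-only region, namely Tnfsf11 (RANKL) and Pycard, the ASC adaptor of inflammasomes, 5.65 kb from a region nearest to Trim72, and 0 had a young-only one. Atf3 and Jun, which encode AP-1 family proteins, were 2 of 18 (11.1%) in their list, and the region 3.58 kb from Atf3 was nearest to Fam71a. Ifih1, the RNA sensor MDA5, held 2 old-only regions and was the only old-only gene of 16 interferon-stimulated ones.

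The Notch pathway, in which receptors cut after contact with a neighbouring cell join RBPJ and Mastermind-like proteins on DNA, had the highest share of the 38 lists, with 6 of 14 genes (42.9%) against 1 (7.14%) with a young-only region. The receptors were Notch1, Notch2 and Notch3, the DNA-binding partner was Rbpj, and the coactivators were Maml2 and Maml3. Notch3 had 2 sites outside the gene, and the one at chr17:32172876-32173597 ranked 23678, 24282 and 28053 in old and 69216, 57299 and 52098 in young libraries. The site 3.92 kb from Rbpj ranked 39973, 30697 and 42117 in old and 65827, 137671 and 82845 in young libraries. In Notch1 it was 46356, 29340 and 34884 in old and 68018, 70622 and 75049 in young libraries, and Notch1 also had the young-only region. With other ways to choose strong peaks, the number of Notch genes with an old-only region ran from 0 to 7.

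Matrix and stromal genes also had more old-only than young-only regions. Extracellular matrix genes had 6 of 23 (26.1%), at Fbn1 (fibrillin), Vcan (versican) and the collagens Col4a1, Col4a2, Col5a1 and Col5a2, against 1 (4.35%), Col6a3. A site in Fbn1 at chr2:125448836-125449455 ranked 20992, 28917 and 30765 in old and 73374, 78032 and 63775 in young libraries, and one in Vcan ranked 24619, 34452 and 21896 in old and 74725, 88171 and 56669 in young libraries. Col4a1 and Col4a2 are neighbours that share a promoter, and each held an old-only site of its own. Mesenchymal stromal genes had 4 of 16 (25%), at Kitl (stem cell factor), Prrx1, Angpt1 and Vcam1, against 2 (12.5%) at Pdgfrb and Nt5e. The Kitl site ranked 41787, 35662 and 41255 in old and 95787, 109923 and 80481 in young libraries. The summed top peaks at stromal markers given above were higher in each old than in each young library. Those sums use the same top peaks as the rule, and Prrx1 and Pdgfrb are in both the list and the marker set. The sums are thus not separate evidence, and the part of stromal cells in these sites was not tested.

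Lists of bone cells had 2 genes each with an old-only region and 0 with a young-only one. So few genes were measured that the share of 5.72% over all genes would give fewer than 1 young-only gene per list. Of 13 osteoblast and chondrocyte genes 2 (15.4%) had an old-only region, among them Runx2, the master transcription factor of bone formation. Of 11 osteoclast genes it was 2 (18.2%), at Itgb3 and Tnfrsf11a. Tnfrsf11a encodes RANK, the receptor on osteoclast precursors, and Tnfsf11, named above, encodes its ligand RANKL. In Tnfsf11 the ranks were 36298, 26425 and 37631 in old and 62765, 54739 and 65378 in young libraries, and in Tnfrsf11a they were 44293, 36283 and 48938 in old and 53129, 68843 and 56596 in young libraries. In Runx2 they were 29972, 38502 and 38637 in old and 69774, 67503 and 65623 in young libraries.

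Long neuronal and adhesion genes were frequent too. Axon guidance genes had 8 of 31 (25.8%) with an old-only and 5 (16.1%) with a young-only region, and cadherins and synaptic adhesion genes had 6 of 26 (23.1%) and 2 (7.69%). Slit3, a secreted guidance ligand, held a region ranked 20789, 20561 and 21360 in old and 90660, 81107 and 60979 in young libraries. Cdh4 held 2 old-only regions, one ranked 15412, 19349 and 17191 in old and 53305, 59109 and 52044 in young libraries, and one ranked 35519, 39245 and 21153 in old and 131913, 128367 and 148211 in young libraries. Fat4, an atypical cadherin, held one ranked 27303, 38539 and 27055 in old and 106891, 105615 and 100651 in young libraries. These genes are long, as are most genes with an old-only region.

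Of the lists of other blood and vessel cells, B lineage genes had 1 of 15 (6.67%) with an old-only region, dendritic genes 1 of 10 (10%), T and NK genes 2 of 15 (13.3%) and endothelial genes 2 of 14 (14.3%). Of these lists, the endothelial one also had a young-only gene, Vwf. Ebf1, a transcription factor of B lineage cells and of marrow stroma, held an old-only region ranked 24998, 28802 and 21213 in old and 81565, 75024 and 82053 in young libraries. Flt3, the receptor of dendritic and early progenitor cells, held one ranked 40480, 44688 and 22168 in old and 82194, 56767 and 56162 in young libraries. Flt4, the VEGF receptor of lymphatic endothelium, held one ranked 41028, 34479 and 29085 in old and 162940, 164388 and 122483 in young libraries. The last was among the wider gaps. Erg, Gata3 and Tcf7 were the other old-only genes of the endothelial and lymphoid lists. Of regulators whose mutants expand in clonal haematopoiesis, Asxl2, Dnmt3a and Kmt2c had an old-only region (3 of 16, 18.8%), and Dnmt3a also had the young-only one.

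Of the remaining lists, MAP kinase phosphatases had 2 of 9 genes (22.2%) with an old-only region, at Dusp4 and Dusp5, and 1 (11.1%) with a young-only one. Glutamate and GABA receptors had 4 of 28 (14.3%), among them Gabbr2, Grik4 and Gabrg3, and 1 (3.57%) with a young-only region, and heparan sulfate sulfotransferases had 2 of 14 (14.3%) on each side. Developmental transcription factors had 4 of 40 (10%) with an old-only region, among them Six2, Dlx5 and Tshz3, and 3 (7.50%) with a young-only one. Ion channels had 4 of 27 (14.8%) and 3 (11.1%). Genes of the cornified epithelium, the outer layer of skin, had 3 of 20 (15%) and 2 (10%); Cdsn and Psors1c2 shared 1 old-only region, and Ppl had 2. Ribosomal protein genes, listed as a housekeeping set, had 2 of 20 (10%) on each side. Such a set shows how far small lists can stand from the shares of 6.68% and 5.72% over all genes.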

How the data were processed

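ATAC-seq peak lists of 6 libraries were used, 3 from old and 3 from young mice, grouped by the labels. The build mm10, the peak caller MACS2 (2.1.0.20140616), the aligner Bowtie2 (2.2.6) and cutadapt (1.14) are named in the submitters' processing notes, together with Picard, Trim Galore (0.4.4) and SAMtools; the notes give no settings. Peaks were called per library by the authors, and every deposited peak has a score, a fold enrichment (a ratio over local background) and −log10 values of p and q as the authors' caller gave them. Whether duplicate reads were removed, read ends shifted for the transposase or regions masked is not given in the sources used here. Since the lists hold no reads, no count model was used and depth is unknown. A deeper library can give a longer list with higher −log10 q values, which is why ranks within a library were used.

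Peaks were ranked by −log10 q, with ties broken by chromosome and start, in Python 3.11.15 with pandas 2.3.3, numpy 2.4.6 and scipy 1.17.1, and figures were drawn with matplotlib 3.10.9. The merging and choice of regions was tested on simulated data. Regions were placed against the spans of 21627 protein-coding RefSeq genes of GRCm38.p6, whose primary chromosomes are those of mm10, and against RefSeq promoter windows on chromosomes other than 18. Library values were compared with two-sided exact permutation tests. No other test was made, since the rule used the same contrast.

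The regions and the gene lists were chosen with earlier results of these data known. Named by rule were the 12 best-ranked regions, the 6 best at gene ends, those with no young peak, the 10 genes with most regions, up to 2 genes per list, the 3 widest regions and those at the edges of the rule. Genes of a list are also named where the list is described; a few genes that met these rules are not reported here. The regions with the widest rank gap, those with a peak in 1 or 2 young libraries, and the Axl and Pparg promoters were chosen after their values were seen. Alternatives were other numbers of top peaks, other rankings and cutoffs, equal covered length, other merging, other gene-end windows and leaving out each library. Margins around rank 50000 were added after the data were seen.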

Additional observations from a re-analysis of the deposited data

How the results depend on the processing

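The 2177 regions depend strongly on how strength was cut. With the 25000 strongest peaks per library there were 1375 old-only and 1023 young-only regions, and 95 of the 2177 (4.36%) overlapped these old-only regions; 100% of the 1375 had a peak in all 3 young libraries and 0% had none. With 75000 peaks, 96.7% had a peak in all 3 young libraries and 5.28% lay at a gene end, and with 100000 there were 2681 young-only regions and these shares were 82.9% and 4.60%, with 1.18% lacking any young peak. Ranking by fold enrichment gave 98.9% and 0%, and 855 of the 2177 (39.3%) were shared. A −log10 q of 5 or more gave 702 old-only regions (95.2% with all 3 young peaks, 4.56% at gene ends) and 10 or more gave 311 old-only and 817 young-only ones (100%, 0% without a young peak, 4.82%), so fewer old-only than young-only regions. Equal coverage of 20 Mb per library gave 718 young-only regions, with 100% (rounded) and 0%. Margins chosen after seeing the data, 45000 and 55000 or 40000 and 60000, left 964 old-only and 537 young-only, or 381 and 127, with 0% lacking a young peak and 4.98% or 4.99% at gene ends. Gene-end windows of 500 and 5000 bp gave 4.55% and 18.3%, and young peaks at a −log10 q of 2 or more were in all 3 libraries at 98.4%. Without one library, old-only regions numbered 2552 to 2970 and young-only regions 2147 to 2817; leaving out old replicate 1 (2817), young replicate 2 (2740) or young replicate 3 (2577) raised the young-only count by over 1.5 times, and without young replicate 2 it exceeded the old-only count of 2615. Leaving out a library only relaxes the rule, so it says nothing about which regions persist. Of the 96 named regions, 23 were old-only with 25000 peaks, 19 with 75000, 6 with 100000, 43 by fold enrichment, 11 and 34 at a −log10 q of 5 and 10, and 49 at equal coverage. Over all alternatives, macrophage identity genes with an old-only region numbered 0 to 4 and with a young-only region 0 to 11, and extracellular matrix genes 0 to 8 and 0 to 4. The cause was not tested. No paired analysis was possible because the regions come from no test. Peak lists without reads limit all of this: depth is unknown, a region absent from a list is only not called, and 3 libraries per age give no p below 0.10.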
